A study of Mus musculus with 4 samples.

Results

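The shores described here are the 2 kb flanks of mouse CpG islands that do not lie at the start of a protein-coding transcript. A shore row of the methylation tables was taken when it lay on chromosomes 1 to 19, had a level in all 4 libraries, and had an edge within 3 bp of an island but of no island that overlapped the 5′ end of a protein-coding transcript in GENCODE vM21 (mm10). This position rule used no methylation level. It found 4825 shores of 16030 autosomal shores with 4 levels, and they flanked 3305 islands. A further 9902 shores flanked a start island, and 1303 touched no listed island. Counting shores with a level in any library, 5052 met the position rule, so 4825 of them were measured throughout.

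The libraries came from C3H10T1/2, a mouse mesenchymal stem cell (MSC) line that can be driven towards bone, cartilage, fat or muscle. Cells were transfected for 48 h with a control siRNA (NC) or with an siRNA against DNA methyltransferase 1 (siDNMT1). Each was left uninduced or was then placed for 3 days in osteoblast (OB) medium with ascorbic acid, β-glycerophosphate and dexamethasone. The labels give no further time in culture for the uninduced cells. An effect of induction therefore cannot be told apart from one of 3 more days after transfection. The 4 groups are called NC, siDNMT1, NC_OB and siDNMT1_OB, with 1 library each, made by reduced representation bisulfite sequencing (RRBS). The labels give no separate cultures, so no difference below has a replicate check and none was tested, and all values come from 1 cell line. Expression is not in these tables, so the depletion of DNMT1 and the identity of the cells were not checked here. A level is the methylated fraction of CpG cytosine in a region, from 0 to 1. The number of reads and the number of CpG sites behind a level are unknown, so no counting error can be given.

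DNMT1 copies the methylation of the old DNA strand onto the new one after replication, and methylation that is not copied is diluted as cells divide. Most CpG islands at promoters are free of methylation, and the sequence beyond their edge passes from the unmethylated to the methylated state, which makes shores a place where tissues often differ. Islands away from promoters, inside or between genes, are more often methylated themselves, so their shores need not be the border of an unmethylated region.

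The sequence on both sides of an island edge is shown for 8 of the shores named below: a pair in which the shore was far above the island, a pair in which it was far below, a pair near the median shore level and the median gap, and one each that was lower or higher in both siDNMT1 libraries. Each line holds 120 bases of the island and 120 bases of the shore from GRCm38 (RefSeq), plus strand, with every CpG in capitals. The island is the first part of each line except in the Actb line, where the shore comes first. The Trio window is mostly coding exon, the Ift22, Nkx2-2 and Zfp41 windows hold exons of noncoding transcripts, and no window overlaps an annotated UTR.
Ift22 (nearest start; shore above island), chr5:136919363-136919602: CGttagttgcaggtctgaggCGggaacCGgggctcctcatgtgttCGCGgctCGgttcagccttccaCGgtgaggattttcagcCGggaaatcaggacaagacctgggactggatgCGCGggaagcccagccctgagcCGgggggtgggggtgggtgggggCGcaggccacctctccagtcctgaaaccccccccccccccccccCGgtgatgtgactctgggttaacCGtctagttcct
Actb (nearest start; shore above island), chr5:142929040-142929279: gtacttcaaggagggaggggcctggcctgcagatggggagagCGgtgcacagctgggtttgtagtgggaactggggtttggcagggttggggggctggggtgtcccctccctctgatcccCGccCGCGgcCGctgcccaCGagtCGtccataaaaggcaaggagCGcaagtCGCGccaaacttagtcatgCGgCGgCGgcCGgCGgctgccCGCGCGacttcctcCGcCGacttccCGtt
Osr2 (island above shore), chr15:35294087-35294326: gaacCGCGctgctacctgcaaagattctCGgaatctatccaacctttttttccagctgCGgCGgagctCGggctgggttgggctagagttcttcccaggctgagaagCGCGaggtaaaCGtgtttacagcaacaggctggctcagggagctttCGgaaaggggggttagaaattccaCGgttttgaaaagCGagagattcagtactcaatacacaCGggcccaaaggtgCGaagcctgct
Cbln1 (island above shore), chr8:87470963-87471202: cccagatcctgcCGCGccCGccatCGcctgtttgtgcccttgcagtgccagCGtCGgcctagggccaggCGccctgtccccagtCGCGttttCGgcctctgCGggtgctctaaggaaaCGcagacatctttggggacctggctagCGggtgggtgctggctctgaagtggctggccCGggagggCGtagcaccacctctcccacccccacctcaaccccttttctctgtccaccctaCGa
Nkx2-2 (near the medians), chr2:147188182-147188421: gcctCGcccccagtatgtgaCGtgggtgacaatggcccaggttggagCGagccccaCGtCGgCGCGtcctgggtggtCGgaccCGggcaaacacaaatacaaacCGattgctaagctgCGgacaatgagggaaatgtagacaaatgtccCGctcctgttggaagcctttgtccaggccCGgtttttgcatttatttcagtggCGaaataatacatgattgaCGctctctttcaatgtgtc
Zfp41 (nearest start; near the medians), chr15:75642403-75642642: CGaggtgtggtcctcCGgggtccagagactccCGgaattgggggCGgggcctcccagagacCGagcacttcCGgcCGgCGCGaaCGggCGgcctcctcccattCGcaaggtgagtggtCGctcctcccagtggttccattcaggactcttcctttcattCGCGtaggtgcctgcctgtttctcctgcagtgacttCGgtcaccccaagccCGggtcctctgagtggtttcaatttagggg
Trio (lower in both siDNMT1 libraries), chr15:27773956-27774195: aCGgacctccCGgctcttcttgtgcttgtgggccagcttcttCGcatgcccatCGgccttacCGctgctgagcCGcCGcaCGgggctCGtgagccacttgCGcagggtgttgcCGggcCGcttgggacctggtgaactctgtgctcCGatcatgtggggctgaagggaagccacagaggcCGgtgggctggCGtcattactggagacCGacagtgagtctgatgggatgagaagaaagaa
Sh3bp2 (higher in both siDNMT1 libraries), chr5:34550020-34550259: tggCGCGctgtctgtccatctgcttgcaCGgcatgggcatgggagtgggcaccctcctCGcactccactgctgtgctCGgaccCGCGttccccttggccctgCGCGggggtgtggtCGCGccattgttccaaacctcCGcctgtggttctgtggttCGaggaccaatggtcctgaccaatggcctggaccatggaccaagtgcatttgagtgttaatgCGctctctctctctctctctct

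The fall in CpG content at the edge can be read from the capitals. The island side held between 9 and 20 CpG in these windows and the shore side between 1 and 5. The steepest edge was that of the Actb line, with 20 CpG in the island part and 1 in the shore part. Over all 4825 shores the median density was 1.90 CpG per 100 bp in the shore and 8.98 in its island. The median GC content was 50.9% in the shore and 66.6% in the island, and the median of the observed over expected CpG ratio was 0.307 against 0.845. A shore held between 6 and 233 CpG in the reference, with a median of 38, and 8 shores held fewer than 10. The median share of repeat-masked bases was 14.7% in the shores and 0% in the islands. Only 1 shore of the 4825 held no CCGG, the site at which RRBS libraries are usually cut.

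These flanks lay in varied places. The island was inside a protein-coding gene for 3433 shores, and 1392 shores flanked an island outside such genes. The start of a transcript of another type fell in the island for 890 shores. The shore overlapped a coding exon in 2312 cases and an annotated UTR in 2035. Being away from a start is a property of the island and not of the whole flank: 1197 shores (24.8%) themselves held a protein-coding start, and 817 reached over another island away from their edge, a start island in 373 of these cases. The 3235 shores with neither are called plain flanks below, a subset that was defined after the levels had been examined. A gene could hold several of these flanks, and flanks are then not independent of each other. On chromosome 8, 36 lay in the single gene model Gm20388. Nfix had 11 and Fat1 had 9. The genes with 8 each were Ltbp4, Zfhx3, Lhx2, Lhx5, Six3, Barhl1 and Nkx2-2 and the gene models Gm42416, Gm37388 and Gm37013. For 817 shores the region overlapped another of the 4825, and for 75 shores all 4 levels equalled those of an island that they overlapped.

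The shores of other islands were methylated at intermediate levels on average and spread over the whole range. The median level was 0.442 in NC, 0.441 in siDNMT1, 0.428 in NC_OB and 0.412 in siDNMT1_OB. In shores of start islands the medians were 0.163, 0.161, 0.144 and 0.134 in the same order. Taking each shore's mean over the 4 libraries, 960 shores lay below 0.1, 915 between 0.1 and 0.3, 895 between 0.3 and 0.5, 1073 between 0.5 and 0.7, and 982 at 0.7 or above. Of the shores of other islands 19.9% lay below 0.1, against 44.3% of the shores of start islands, and 20.4% against 8.33% lay at 0.7 or above. The levels were close to each other across libraries. The range over the 4 libraries had a median of 0.0376, it stayed below 0.05 in 3182 shores (65.9%), and it reached 0.2 in 87 shores.

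**Figure D1:**
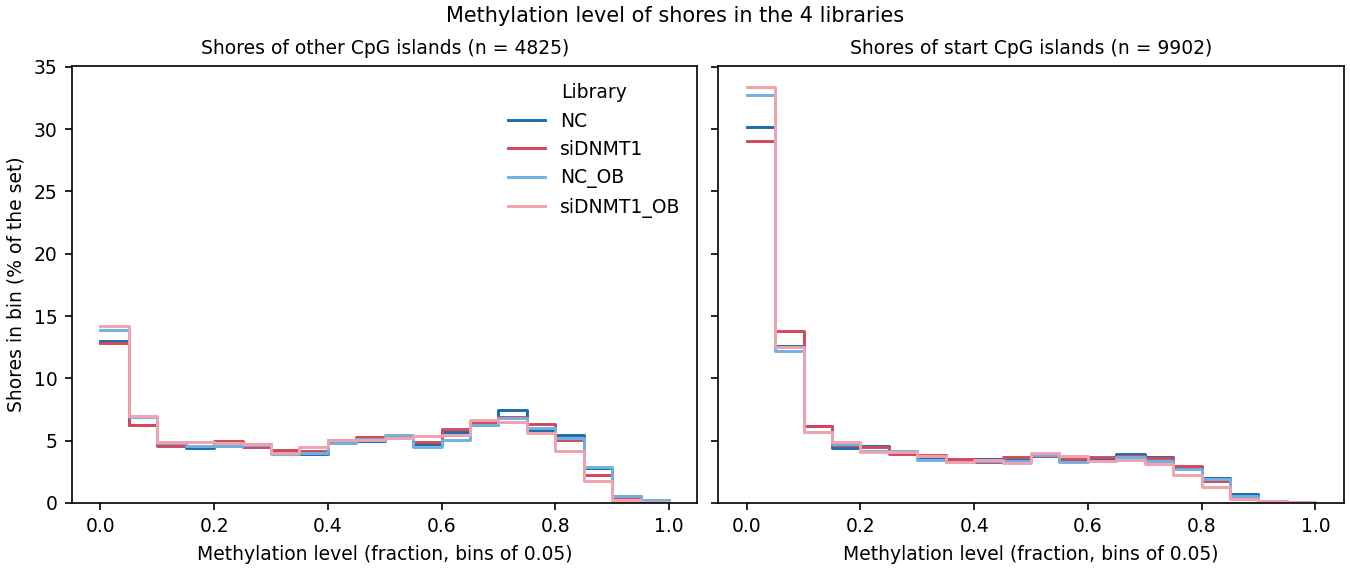
Share of shores (y axis, % of the set) by methylation level (x axis, fraction, bins of 0.05) in each of the 4 libraries, for 4825 shores of other islands (left) and 9902 shores of start islands (right). The shores of other islands form a narrow peak near 0 and a lower, broad one around 0.7, with medians from 0.412 to 0.442. The shores of start islands pile up near 0.

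The level followed where the flank lay. Shores that held a protein-coding start had a median of 0.222, and those without one 0.488. The 373 shores over a start island had the lowest median of the position classes examined, 0.126. Plain flanks had a median of 0.499. Among plain flanks, those of islands inside protein-coding genes had a median of 0.552 and those of islands outside them 0.385. Plain flanks that overlapped a coding exon stood at 0.623, and those in a gene body without an exon at 0.370. With the nearest protein-coding start outside the shore, the median was 0.452 with a start within 5 kb, 0.552 with the nearest start at 5 to 20 kb and 0.503 beyond 20 kb. Left and right flanks had medians of 0.435 and 0.427.

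The shores could also be set beside the deposited rows of the genes they lay in. For 3008 shores with a row for the exons of the host gene, the shore median was 0.476 and the exon median 0.486. For 2877 shores with an intron row the medians were 0.476 and 0.416, and for 2678 with a promoter row they were 0.480 and 0.257. A shore and its gene's rows can share CpG sites, so these are levels side by side and not separate measurements.

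CpG density had no single relation to the level. Over the 4686 shores whose island had 4 levels, Pearson's r between the level and the CpG density of the shore was -0.150, and in the 3157 plain flanks among them it was 0.140. These correlations are a description over regions that share libraries. With the shores split evenly into 4 bins of CpG density, the median level was 0.416, 0.485, 0.493 and 0.299 from sparse to dense. The low value of the densest bin was not found in its 326 plain flanks, which had a median of 0.616.

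The level of the island itself was then compared with that of its flank, for the 4686 shores (3209 islands) in which both had 4 levels. Over all pairs the flank was as often above its island as below it. The median difference of shore minus island was 0.00256 in NC, 0.00201 in siDNMT1, 0.00475 in NC_OB and 0.00453 in siDNMT1_OB. The shore was higher in 51.0%, 50.9%, 52.3% and 52.2% of pairs. In start islands the same difference was 0.0520 in NC, and the shore was higher in 81.6% of 9839 pairs. The near-zero median of the other islands covered wide gaps in both directions: on the mean of 4 libraries 1307 shores were above their island by at least 0.1. The direction of so small a median also depended on the annotation. When islands at a start of any transcript type were left out too, it was -0.00305 in NC and -0.000563 in siDNMT1_OB.

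The gap followed the level of the island. For 1283 pairs with an island below 0.1, the median level was 0.0671 in the shore and 0.0222 in the island, and the shore was higher in 83.7%. For 864 pairs with an island between 0.1 and 0.3 the medians were 0.286 and 0.192. For 677 pairs with an island between 0.3 and 0.5 they were 0.408 and 0.40, so that shore and island stood level. Above this the order turned: 0.532 in the shore and 0.598 in the island for 587 pairs between 0.5 and 0.7, and 0.699 and 0.833 for 1275 pairs with an island at 0.7 or above. In this last class the shore was higher in 14.9% of pairs. Of the 9839 pairs of start islands, 7245 had an island below 0.1, and the shore was higher in 91.3% of these. In the 222 with an island at 0.7 or above it was higher in 15.3%, so the order turned in start islands too. The classes are cut on the island, which by itself places any partly related measure nearer to the middle. Cut on the shore instead, the medians of shore and island stayed close in every class: 0.0346 and 0.0237 below 0.1, 0.201 and 0.206 from 0.1 to 0.3, 0.408 and 0.388 from 0.3 to 0.5, 0.611 and 0.587 from 0.5 to 0.7, and 0.779 and 0.788 at 0.7 or above.

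**Figure D2:**
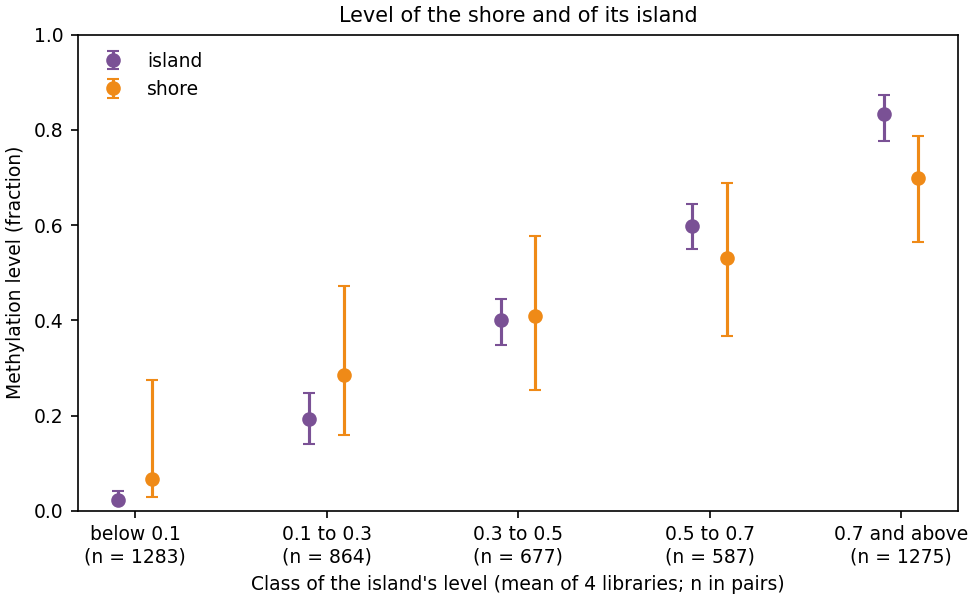
Median methylation level (y axis, fraction, mean of 4 libraries) of the island and of its shore, for pairs grouped by the level of the island (x axis, with the number of pairs). Bars span the 25th to the 75th percentile over pairs. The shore lies above an island of low level (0.0671 against 0.0222) and below an island of high level (0.699 against 0.833).

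Shore and island also fell into the same level class often but not always. Where the island was below 0.1, 728 shores (56.7%) were too, and 65 were at 0.7 or above. Where the island was at 0.7 or above, 631 shores (49.5%) were too, and 29 were below 0.1. Pearson's r between the 2 levels was 0.655 over 4686 pairs, which share libraries and, for islands with both flanks, the island. Inside protein-coding genes the shore was higher in 48.6% of 3334 pairs, and outside them in 60.4% of 1352 pairs.

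The pairs with the widest gaps show what a flat median conceals. The flank above its island by the most, chr5:136919483-136921483 on the right of an island within the noncoding gene 4933404O12Rik, had levels of 0.985 in NC, 1 in siDNMT1, 1 in NC_OB and 0.932 in siDNMT1_OB. Its island had levels of 0.0172, 0.0169, 0.0158 and 0.00995. The nearest protein-coding start was that of Ift22, an intraflagellar transport gene, 11.2 kb away. In all 4 libraries this flank was near full methylation beside an island near none. The left flank of the island nearest to Actb, the cytoplasmic actin gene (20.4 kb), stood at 0.853, 0.854, 0.854 and 0.863, and its island at 0.0124, 0.0140, 0.0147 and 0.0120. This is the edge with 20 CpG on one side and 1 on the other. The flank inside Tchp, which encodes a keratin filament binding protein, averaged 0.836 beside an island at 0.00885. Flanks in the T-box gene Tbx18 and nearest to Aacs (7.8 kb), which encodes acetoacetyl-CoA synthetase, averaged 0.842 and 0.834 beside islands at 0.0181 and 0.0168.

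The reverse arrangement was as wide. The right flank of an island beside Osr2, a zinc finger regulator of limb and palate development, had levels of 0.0146, 0.0181, 0.0189 and 0.0182 in NC, siDNMT1, NC_OB and siDNMT1_OB. Its island stood at 0.876, 0.863, 0.881 and 0.870. This shore held the Osr2 start and reached over its start island. The same was true of the flank in Ankrd9, at an average of 0.0194 beside an island at 0.864, and of the flank in Cbln1, a synapse organiser of the cerebellum, at 0.0520 beside an island at 0.894. A flank in the protocadherin gamma cluster, whose alternative first exons encode adhesion proteins of neurons, averaged 0.00611 beside an island at 0.871, and it also held a start. The flank nearest to Gm10320 (11.2 kb) averaged 0.0698 beside 0.911 and held neither a start nor another island, but its 4 levels equalled those of another shore row. In 4 of these 5 pairs the low flank held the start of a gene, beside 24.8% of all 4825 shores. These pairs were chosen for a low flank. Of the shores that held a protein-coding start, 35.1% lay below 0.1, against 19.9% of all 4825.

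The pairs nearest to the median shore level and the median gap were thereby chosen for a small gap. In Nkx2-2, a homeobox regulator, the shore had levels of 0.434, 0.422, 0.454 and 0.431 and the island 0.445, 0.422, 0.435 and 0.424. The pair nearest to Zfp41, a zinc finger gene (25.8 kb), had means of 0.418 and 0.423, and that in Rfx4, a winged helix regulator, 0.430 and 0.412.

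The flanks of 1 island were often unlike each other. For 1519 islands with both a left and a right flank, the median absolute difference between the flanks was 0.142 in NC, 0.142 in siDNMT1, 0.141 in NC_OB and 0.144 in siDNMT1_OB. It reached 0.3 in 23.6% of islands in NC. Pearson's r between left and right was 0.483 over these islands. Where the island lay in 1 protein-coding gene (1053 islands), the flank towards the 5′ end of the gene was the lower one in 55.1%, with median levels of 0.450 for the 5′ and 0.493 for the 3′ flank. In the 383 of these islands with plain flanks on both sides it was lower in 49.6%.

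The question of the siDNMT1 libraries is whether depletion of DNMT1 lowered methylation, before and after OB induction. Without induction the shores of other islands shifted little. The median of siDNMT1 minus NC was -0.00350, and 58.8% of shores were lower. In this comparison 49 shores were lower by at least 0.1 (1.02%) and 50 were higher by at least 0.1 (1.04%), beside 0.848% and 0.973% of all 16030 autosomal shores, which include the 4825. The counts of both directions were thus equal within 1 and close to the background.

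After OB induction the shift was wider. The median of siDNMT1_OB minus NC_OB was -0.0110, and 70.9% of shores were lower. The shores lower by at least 0.1 numbered 93 (1.93%) and those higher 49 (1.02%), beside 1.75% and 0.749% of all autosomal shores. The median over all autosomal shores was -0.00813, with 66.7% lower. With each library centred on its own median over autosomal shores, the counts became 68 lower and 59 higher and the median difference 0.000901. The constant removed, -0.0119, is the difference of the library medians and is larger in size than both median differences, so this split is set by it. The difference in OB minus the difference without induction had a median of -0.00709 and was negative in 3046 of 4825 shores (63.1%). The median in OB was negative on all 19 autosomes, from -0.0168 on chromosome 17 to -0.00585 on chromosome 3. Without induction it was negative on 18, the exception being chromosome 14 at 0.000227.

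The shift was smallest in shores of low level. In shores below 0.1 the median of siDNMT1_OB minus NC_OB was -0.000378. It was -0.00736 from 0.1 to 0.3, -0.0135 from 0.3 to 0.5, -0.0213 from 0.5 to 0.7 and -0.0201 at 0.7 or above. Without induction the medians in the same classes were 0.000709, -0.00159, -0.00528, -0.00735 and -0.00820. A level near 0 has no room to fall, and a class cut on a mean that holds the compared libraries is not free of them. Cut on the 2 libraries outside the comparison, the OB medians were -0.000354, -0.00658, -0.0135, -0.0209 and -0.0205, and at 0.7 or above 87.2% of shores were lower. Shores of start islands, classed on the mean of 4 libraries, had the lower OB median in every class. Their medians were -0.000617, -0.00897, -0.0174, -0.0225 and -0.0252 from the lowest to the highest class. The wider median shift of the shores of other islands over all levels was thus not seen within classes. The shores of other islands also had higher levels, and the part of level in their wider shift was not tested.

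**Figure D3:**
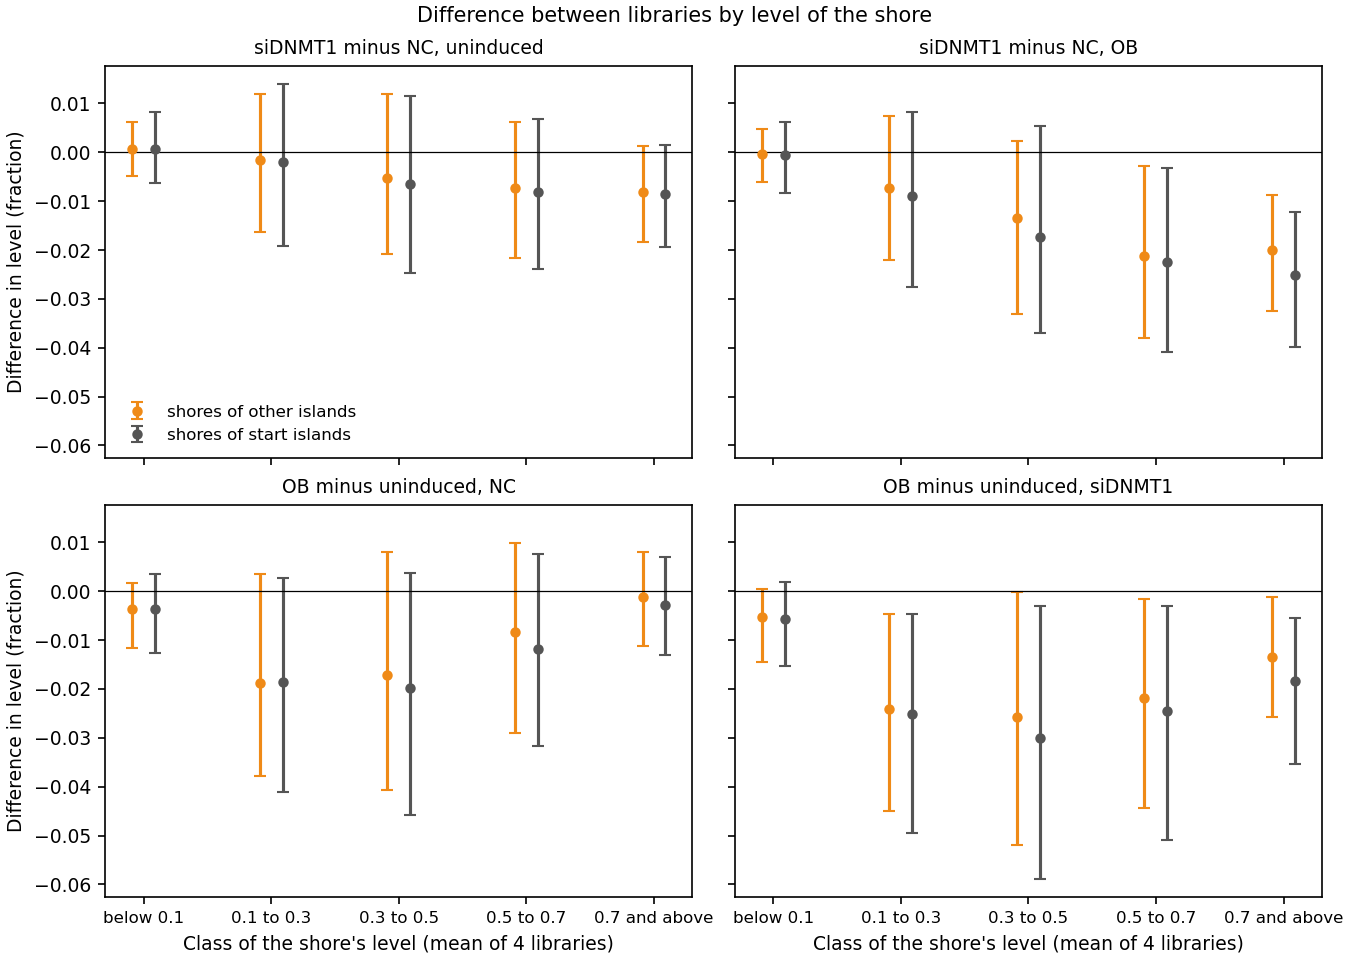
Median difference in methylation level between libraries (y axis, fraction; bars span the 25th to the 75th percentile over shores) for the 4 comparisons, by class of the shore's mean level (x axis), for shores of other islands and shores of start islands. The siDNMT1 differences are smallest in the lowest class (in OB -0.000378, against -0.0213 from 0.5 to 0.7 and -0.0201 at 0.7 or above), whereas the induction difference with NC is widest between 0.1 and 0.5.

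The induced libraries against the uninduced ones gave a different profile over levels. In cells with the control siRNA the median of NC_OB minus NC was -0.00636, with 64.4% of shores lower. There were 107 shores lower (2.22%) and 40 higher (0.829%) by at least 0.1, beside 2.01% and 0.767% of all autosomal shores. By level the medians were -0.00357 below 0.1, -0.0189 from 0.1 to 0.3, -0.0172 from 0.3 to 0.5, -0.00835 from 0.5 to 0.7 and -0.00122 at 0.7 or above. The widest shift was thus at low to middle levels, and the most methylated flanks hardly moved. Cut on the 2 siDNMT1 libraries the medians were -0.00368, -0.0191, -0.0172, -0.00786 and -0.00115. In cells with the DNMT1 siRNA the median of siDNMT1_OB minus siDNMT1 was -0.0151, with 76.3% of shores lower. There 190 shores were lower (3.94%) and 57 higher (1.18%) by at least 0.1, beside 3.56% and 0.886% of all autosomal shores. In this comparison the shores at 0.7 or above had a median of -0.0134. After centring, the counts were 66 lower and 68 higher with NC and 96 lower and 102 higher with siDNMT1. The constants removed, -0.0210 and -0.0306, exceed in size the median differences over all autosomal shores, -0.00649 and -0.0133, so these splits too are set by the constant. The 4 comparisons share libraries pairwise, so their counts are not independent of each other.

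Flank and island were then compared for the same shift. In the siDNMT1 comparisons the flank moved slightly further down than its island. Over 4686 pairs the median difference was -0.00345 in the shore and -0.00165 in the island without induction, and -0.0108 against -0.00715 in OB. The shore's difference was the more negative one in 52.5% and 53.6% of pairs. In OB the shore's difference minus the island's had a median of -0.00267 over all pairs. Within classes of island level it stayed negative, at -0.00250, -0.00394, -0.00198, -0.00198 and -0.00267 from the lowest to the highest class. It was 0.000720 in the 1149 pairs whose shore held a protein-coding start. In the pairs of start islands it was -0.00467. On induction the order of shore and island was reversed. With NC the medians were -0.00640 in the shore and -0.00899 in the island, and with siDNMT1 -0.0151 and -0.0171.

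The reversal lay in islands of middle level. Where the island lay between 0.3 and 0.5, NC_OB minus NC had a median of -0.0349 in the island and -0.0126 in its shore, and the shore's difference was the more negative one in 31.2% of 677 pairs. From 0.5 to 0.7 the medians were -0.0272 in the island and -0.0111 in the shore, and from 0.1 to 0.3 they were -0.0238 and -0.0125. Where the island was below 0.1 the shore moved further, at -0.00533 against -0.00269, and at 0.7 or above both moved little, at -0.00198 and -0.00411. With siDNMT1 the class from 0.3 to 0.5 gave -0.0414 in the island and -0.0196 in the shore. Cut on the siDNMT1 libraries, the island medians of NC_OB minus NC were -0.0245, -0.0347 and -0.0272 from 0.1 to 0.7, beside -0.0126, -0.0133 and -0.0107 in the shores. In plain flanks of islands between 0.3 and 0.5 the medians were -0.0349 in the island and -0.00934 in the shore. Start islands between 0.3 and 0.5 showed the same order with NC, at -0.0385 in the island and -0.0163 in the shore. With siDNMT1 the shore's difference minus the island's was -0.000417 in the 1352 pairs outside protein-coding genes, so the order was not reversed there.

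**Figure D4:**
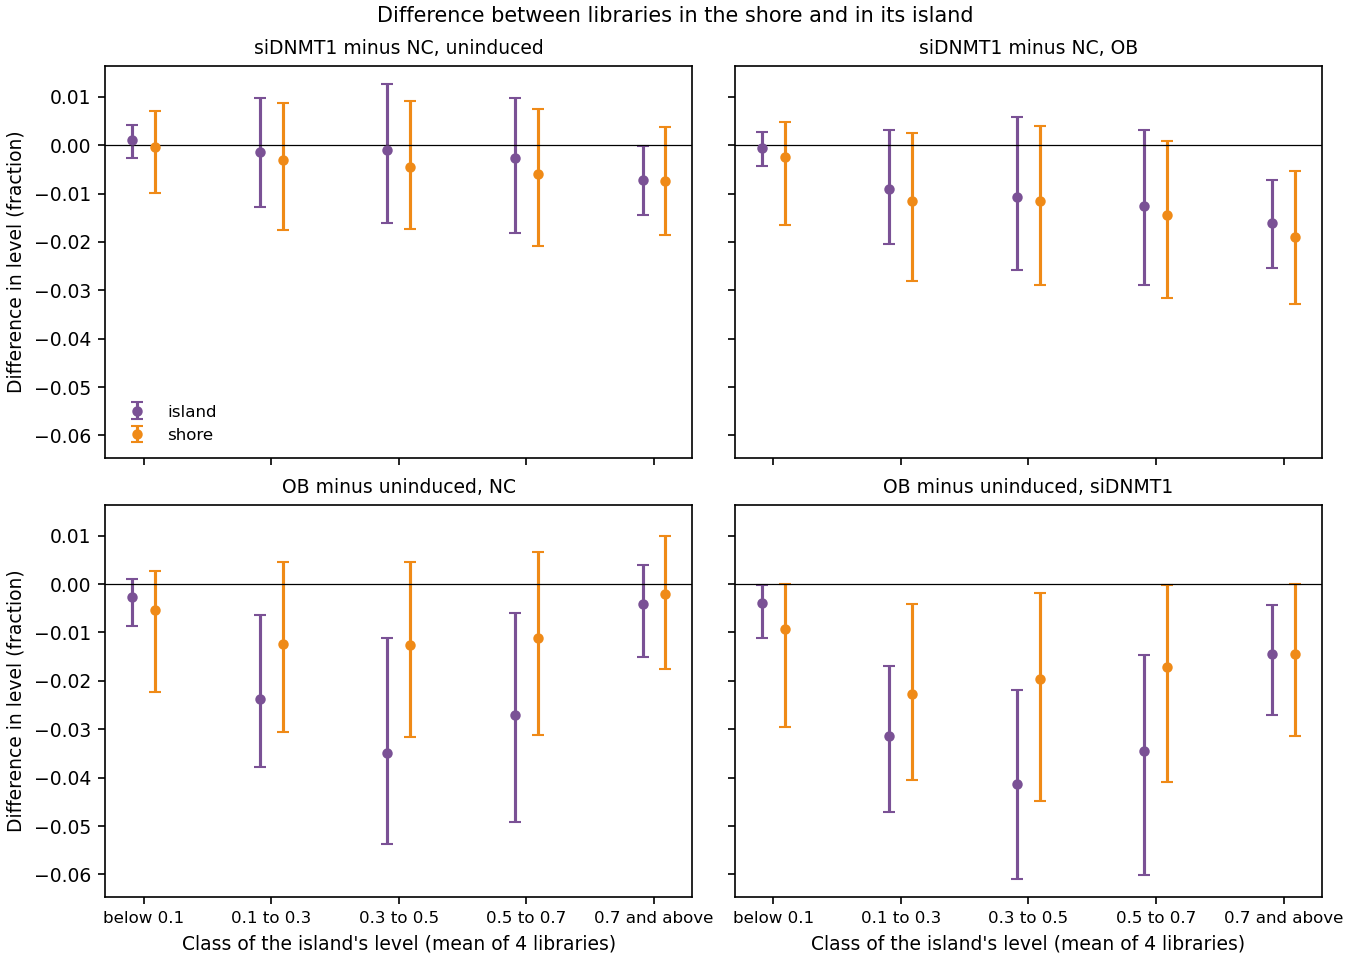
Median difference in methylation level (y axis, fraction; bars span the 25th to the 75th percentile over pairs) in the island and in its shore for the 4 comparisons, by class of the island's mean level (x axis). On OB induction islands between 0.1 and 0.7 lie further below 0 than their shores (with NC from 0.3 to 0.5, -0.0349 against -0.0126), which the siDNMT1 comparisons do not show.

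Most large changes of a flank were not shared by its island. Without induction none of the 47 paired shores lower in siDNMT1 by at least 0.1 had an island that was lower by as much. In OB this was so for 3 of 92, on induction with NC for 4 of 106, and on induction with siDNMT1 for 18 of 189. These shares, 0%, 3.26%, 3.77% and 9.52%, stood beside 0.405%, 0.576%, 1.58% and 2.28% of all 4686 paired islands lower by at least 0.1. Among islands with both flanks, both were lower by at least 0.1 in 0 islands without induction, 1 in OB, 1 on induction with NC and 7 on induction with siDNMT1. Changed shores also differed from the rest in kind. Of the 386 shores that changed by at least 0.1 in any comparison, 5.96% reached over another island, against 17.9% of the 4439 others. Their median was 31 CpG against 39, and 4.66% had a level of exactly 0 or 1 in some library, against 0.856%. The share that changed was 13.4% of shores with under 20 CpG, 10.6% with 20 to 39, 5.61% with 40 to 79 and 1.46% with 80 or more. The number of reads behind these levels is unknown, and its part in the changes was not tested.

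Of the shores past the threshold of 0.1, 5 were lower in siDNMT1 both times and 8 were higher both times, while 5 were lower without induction and higher in OB and 8 the reverse. Past this threshold, changes in the same direction were thus no more frequent than changes in opposite directions. The 5 lower in both were 10.2% of those lower without induction, beside 1.93% of all 4825 lower in OB. They were 5.38% of those lower in OB, beside 1.02% of all lower without induction. The 8 higher in both were 16.0% of those higher without induction, beside 1.02% of all higher in OB. They were 16.3% of those higher in OB, beside 1.04% of all higher without induction. Because these shores were chosen by these differences, their values are a description. The shore chr15:27774076-27776076 in Trio, which encodes a guanine nucleotide exchange factor, had levels of 0.944 in NC, 0.727 in siDNMT1, 1 in NC_OB and 0.676 in siDNMT1_OB, and it overlapped a coding exon. Both siDNMT1 levels were below both NC levels, while its island stayed between 0.882 and 0.897.

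An intronic flank in Tcf20, a transcriptional coregulator (chr15:82909627-82911626), had levels of 0.729, 0.474, 0.821 and 0.615 in the same order, beside an island from 0.595 to 0.630. The flank in Tcf3, which encodes an E protein (chr10:80413057-80415057), had levels of 0.868, 0.667, 0.897 and 0.766. Here the island was also lower in siDNMT1, at 0.762 against 0.826 in NC, but not in OB, at 0.821 against 0.824. The flank in Grasp, a scaffold gene (chr15:101229559-101231558), had levels of 0.715, 0.608, 0.634 and 0.389 beside an island from 0.822 to 0.831. The last, chr11:109009697-109011696, lay in no gene, 86.5 kb from Axin2, a feedback inhibitor of Wnt signalling, and had levels of 0.344, 0.238, 0.476 and 0.190.

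Of the shores higher in both, the one in Sh3bp2 stood out by size. Sh3bp2 encodes an adaptor protein of immune cells and osteoclasts. Its flank chr5:34550140-34552140 had levels of 0 in NC, 0.649 in siDNMT1, 0.111 in NC_OB and 0.625 in siDNMT1_OB, and its island stayed between 0.0551 and 0.106. The flank in Ocstamp, which encodes a membrane protein of osteoclast fusion (chr2:165394057-165396056), had levels of 0.297, 0.628, 0.458 and 0.846. Its island moved the other way, from 0.95 in NC to 0.897 in siDNMT1 and from 0.931 to 0.887 in OB. The other named ones were intergenic. The flank nearest to Smug1, a uracil-DNA glycosylase gene (8.9 kb), had levels of 0.309, 0.568, 0.280 and 0.520. That nearest to Lekr1 (7.4 kb) had 0, 0.429, 0.0667 and 0.267, and that nearest to Eapp (39.1 kb) had 0.0833, 0.25, 0.0833 and 0.357. In all 5 both siDNMT1 levels lay above both NC levels.

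**Figure D5:**
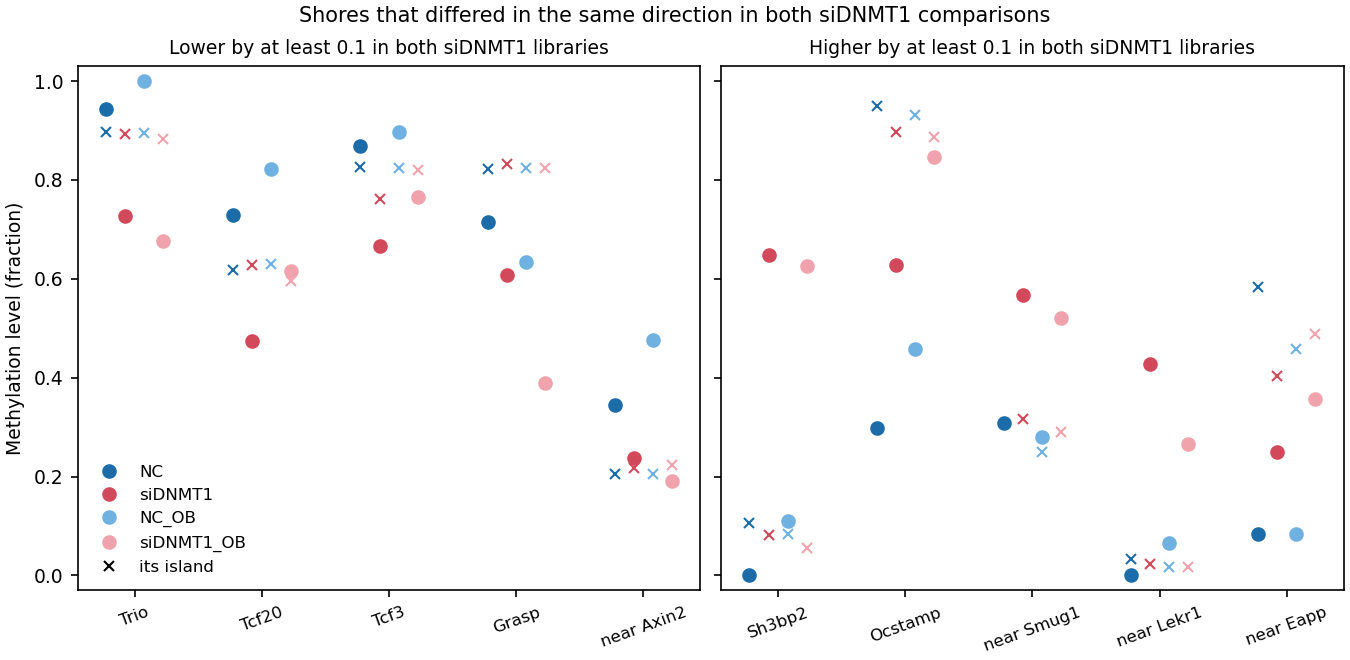
Methylation level (y axis, fraction) in the 4 libraries of the 5 shores lower (left) and the 5 shores named as higher (right) by at least 0.1 in both siDNMT1 comparisons. Circles are the shore and crosses its island in the same library, with no cross where the island has no level. Each island with a level in both libraries differs less than its shore, apart from that near Eapp without induction (0.583 and 0.403, beside 0.0833 and 0.25 in the shore).

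The largest single changes were confined to 1 library in several cases. In Magi2, a synaptic scaffold gene, the flank had levels of 0.711 in NC, 0 in siDNMT1, 0.687 in NC_OB and 0.686 in siDNMT1_OB, so that 3 libraries stood together and siDNMT1 alone was at 0. The flank nearest to Fbln2, an extracellular matrix gene (72.9 kb), was at 0.802, 0.776 and 0.75, and at 0.125 in siDNMT1_OB. The intergenic flank nearest to Btaf1 (92.6 kb) was at 0.30 in NC and from 0.667 to 0.765 elsewhere. In Chst3, a chondroitin sulfotransferase gene, the flank had levels of 0.50, 0.464, 0.800 and 0.20, and its island stayed between 0.904 and 0.912.

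Other large changes were the following. In Elavl2, an RNA-binding protein gene of neurons, the levels were 0.308, 0, 0.333 and 0.429. In Dlc1, which encodes a GTPase activating protein, they were 0.167, 0.0714, 0.0833 and 0.40. In Pax5, the B cell regulator, they were 0.50, 0.875, 0.40 and 0.316. In these 3 flanks 1 siDNMT1 library stood apart from the other 3 libraries. In Hlf, a bZIP regulator, they were 0.576, 0.633, 0.478 and 0.175, and in St3gal1, a sialyltransferase gene, 0.442, 0.204, 0.704 and 0.636.

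A change shared by both induced libraries was seen nearest to Sox2, the pluripotency regulator. The flank chr3:34664474-34666474, in the noncoding gene Sox2ot and 14.1 kb from the Sox2 start, had levels of 0.133 in NC, 0.105 in siDNMT1, 0.581 in NC_OB and 0.552 in siDNMT1_OB. Both induced libraries were far above both uninduced ones. Its island had levels of 0.622, 0.573, 0.470 and 0.537, lower in both induced libraries. In the opposite direction, a flank in Gm20388 (chr8:122870957-122872957), less than 5 kb from the cadherin gene Cdh15, had levels of 0.444, 0.524, 0.111 and 0.167, and its island stayed between 0.615 and 0.659. These flanks were picked out as extremes of the same comparisons.

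Shores near genes of the MSC fates were read from lists of genes, each with the shores in or within 5 kb of a gene. Near 8 genes of 26 on the osteoblast list there were 22 shores, with medians of 0.603 in NC, 0.594 in siDNMT1, 0.586 in NC_OB and 0.559 in siDNMT1_OB. In OB the median of siDNMT1 minus NC was -0.0133 and 18 of 22 were lower, beside -0.0110 and 70.9% over all 4825. Without induction it was -0.0121 with 17 of 22 lower, beside -0.00350 and 58.8% over all 4825. By at least 0.1, 1 was lower and none higher without induction, and none was lower and 1 higher in OB, beside 1.02% and 1.04%, and 1.93% and 1.02%, of all 4825. The flank in Sp7, which encodes the osteoblast factor osterix, had levels of 0.229, 0.287, 0.190 and 0.242. A flank in Bmp4, a bone morphogenetic protein gene, had levels of 0.844, 0.818, 0.855 and 0.812, far above its island, which ranged from 0.188 to 0.340. The flank nearest to Msx2, a homeobox gene of skull development, had levels of 0.765, 0.738, 0.743 and 0.707.

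The chondrocyte list had 26 shores near 8 of 17 genes, and none changed by at least 0.1 in any of the 4 comparisons, beside 386 of all 4825. The median of siDNMT1 minus NC was -0.00631 without induction and -0.0111 in OB. A flank in Sox6, a partner of Sox9 in cartilage, had levels of 0.392, 0.339, 0.365 and 0.332. A flank in Comp, a cartilage matrix gene, had levels of 0.804, 0.767, 0.745 and 0.704. Both were lower in siDNMT1 than in NC before and after induction. A flank of Sox9, the master regulator of cartilage, had levels of 0.801, 0.837, 0.805 and 0.771, but these are the levels of an island inside the flank as well, so they do not measure the shore apart from it. An intergenic flank of an island in Sox5 had levels of 0.583, 0.620, 0.576 and 0.552 beside an island from 0.0363 to 0.0482.

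The list of adipocyte and muscle fate genes had 31 shores near 12 of 21 genes, with a median level of 0.232. Its median of siDNMT1 minus NC was -0.00474 without induction and 0.00113 in OB. The flank in Zfp423, a regulator of preadipocyte commitment, had levels of 0.611, 0.433, 0.50 and 0.528. A flank at the start of Mef2c, a muscle regulator, had levels of 0.803, 0.784, 0.809 and 0.717. The flank in Pax7, a marker of muscle stem cells, had levels of 0.219, 0.253, 0.199 and 0.222.

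Homeobox genes held the most shores of any list, 242 near 81 of 96 genes. Their median levels were 0.384, 0.379, 0.356 and 0.342, and the median level of their islands was 0.390. The median on induction was -0.0131 with NC and -0.0199 with siDNMT1, beside -0.00636 and -0.0151 over all 4825. Lower on induction were 186 and 185 of 242, beside 64.4% and 76.3% of all 4825. By at least 0.1, 5 were lower and 0 higher on induction with NC, and 7 lower and 2 higher with siDNMT1, close to the shares of all 4825 (2.22% and 0.829%, 3.94% and 1.18%). The flank nearest to Six3 had levels of 0.317, 0.50, 0.254 and 0.237. The flank in Lhx4 had levels of 0.304, 0.195, 0.190 and 0.123, and that in Lhx8 0.428, 0.446, 0.407 and 0.561.

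Signalling genes of the WNT, FGF, BMP, TGF-beta, Notch and hedgehog families had 108 shores near 44 of 95 genes. The median of siDNMT1 minus NC was -0.00397 without induction and -0.0128 in OB. There 71 and 79 of 108 were lower, beside 58.8% and 70.9% of all 4825. On induction with siDNMT1 4 were lower by at least 0.1 and none higher, close to the 3.94% and 1.18% of all 4825. The flank in Wnt10b, a WNT ligand of bone formation, had levels of 0.791, 0.751, 0.781 and 0.712. That in Bmp3, a BMP antagonist of bone, had levels of 0.166, 0.0857, 0.139 and 0.0787, lower in both siDNMT1 libraries by less than 0.1. The flank in Heyl, a Notch target, had levels of 0.333, 0.443, 0.398 and 0.313, and the flank in Fgf9, whose 4 levels equalled those of another shore row, had 0.228, 0.304, 0.306 and 0.183.

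On a list of DNA methylation enzymes and related genes such as Mbd3, 3 of 14 genes had 5 shores, with a median level of 0.777. The flank in Tet3, which encodes an enzyme that oxidises methylcytosine, had levels of 0.898, 0.868, 0.896 and 0.787. The flank in Dnmt3a, a gene for de novo methylation, had levels of 0.633, 0.638, 0.602 and 0.573, and that in Mbd3, a chromatin remodeller subunit, 0.825, 0.823, 0.823 and 0.812. All 5 were lower in siDNMT1_OB than in NC_OB, beside 70.9% of all 4825.

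Imprinted genes carry methylation on 1 parental allele at their control regions, which gives a level near the middle in a mixed read-out. Near 16 of 49 listed genes there were 24 shores, with a median level of 0.481. Of these, 9 (37.5%) lay between 0.4 and 0.6, against 20.2% of all 4825 shores. Both flanks of the Zrsr1 island, which lies within Commd1, stayed near the middle: 0.510, 0.506, 0.50 and 0.514 on the left and 0.499, 0.470, 0.502 and 0.533 on the right, with the island from 0.441 to 0.508. Of the 3 flanks in the Gnas and Nespas locus, 2 held levels from 0.465 to 0.496. The third had levels of 0.0909, 0.121, 0.113 and 0.330, and was the 1 shore of the list higher by at least 0.1 in siDNMT1_OB than in NC_OB.

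Other imprinted flanks were less even. The left flank of the Cdkn1c island, a cell cycle inhibitor gene, had levels of 0.178, 0.174, 0.203 and 0.162 and the right flank 0.730, 0.709, 0.711 and 0.716, beside an island from 0.654 to 0.737. So the left flank alone was low. The flank in Igf2, the growth factor gene, had levels of 0.385, 0.393, 0.430 and 0.405. The flank of Peg13 within Trappc9 had levels of 0.415, 0.440, 0.415 and 0.421, and the flank in Plagl1 0.303, 0.325, 0.307 and 0.249. The flanks of the Mkrn3 island had 0.464, 0.489, 0.498 and 0.477 on the left and 0.212, 0.146, 0.185 and 0.271 on the right. The median of siDNMT1 minus NC over the 24 shores was -0.00262 without induction and -0.000935 in OB. Of the 24, 14 and 13 were lower, beside 58.8% and 70.9% of all 4825.

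Of 14 genes that the study names, 6 had 22 shores by the GENCODE extents. The 7 assigned to Fgfr2 lay beyond the end of that gene in RefSeq, which places no shore within 5 kb of it, and they sat instead by Hmx2, Bub3, Gpr26 and Nkx1-2. Without them 15 shores remained, with a median of siDNMT1 minus NC of -0.00436 without induction and -0.0179 in OB. Of the 15, 10 and 12 were lower, beside 58.8% and 70.9% of all 4825. None of the 22 changed by at least 0.1 in a siDNMT1 comparison, the widest difference being 0.0531, and a list of this size would hold few such shores at the shares of all 4825. The left flank of the island in Ihh, the hedgehog ligand of growth plate cartilage, had levels of 0.822, 0.818, 0.811 and 0.826, and the right flank 0.211, 0.204, 0.213 and 0.190. The flanks of this island thus lay far apart in every library, and neither changed by as much as 0.1. In Wnt3a the flanks of a pair of islands had levels of 0.349, 0.366, 0.347 and 0.363, and of 0.422, 0.413, 0.404 and 0.358.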

How the data were processed

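Genomic DNA of 4 C3H10T1/2 cultures was profiled, 1 library per condition. Per the labels, reads were processed with CASAVA, Trimmomatic 0.36 and Bismark 0.16.3 and placed on mm10; the labels name the assay RRBS, while the extraction notes describe sonication and no digestion enzyme. The deposited tables hold 1 methylation fraction (0 to 1) per region that the authors computed, with no counts or coverage. How sites were weighted and which coverage minimum was used are not given in the sources used here, so the depth is unknown, and differences in coverage between libraries could move single levels. The tables listed between 155398 and 159705 regions per library, of 8 classes, and between 4887 and 4987 of the shores described here.

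Shores were joined to islands by edges (tolerance 3 bp). Starts, exons and genes came from GENCODE vM21, and sequence from the GRCm38 genome of RefSeq; all 14350 islands on chromosomes 1 to 19 and X began and ended with CG there. A shore was counted as changed at a difference of 0.1 or more. No test was run, since there was 1 library per condition. Medians are over regions. The code was checked on simulated data. The scripts ran under Python 3.11.15 with numpy 2.4.6, matplotlib 3.10.9, pandas 2.3.3 and, for intervals not shown, scipy 1.17.1.

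The members and gene lists were chosen with earlier results of these data known. Named shores were the 5 per direction changed alike in both siDNMT1 comparisons, the 3 largest falls and rises per comparison, the 5 widest gaps to the island in each direction, the 3 pairs nearest the median shore level and median gap (all with at least 10 CpG), up to 4 per gene list by mean absolute siDNMT1 difference, and shores within 5 kb of genes the study names (1 shore named by these rules is not reported here, and 2 genes on that list that the study's text does not name were left out); further imprinted, Ihh and Wnt3a shores were picked after their values were seen. Alternatives changed the edge tolerance, the transcript types, the length, the CpG minimum, levels of exactly 0 or 1, the centring of libraries, the threshold and the chromosomes.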

Additional observations from a re-analysis of the deposited data

Results flagged for a closer look

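In 3 of the named shores the siDNMT1 difference was at least 0.1 in size, in opposite directions, without and with OB induction. Opposite directions of any size were found in 42.1% of all 4825 shores. With 1 library per condition the difference between the 2 comparisons was not tested. The shore nearest to Mef2c (chr13:83745335-83747335) lay in the noncoding gene C130071C03Rik, 92.4 kb from the nearest Mef2c start. It differed by -0.492 without induction and by 0.290 in OB, with levels of 0.714 in NC, 0.222 in siDNMT1, 0.05 in NC_OB and 0.340 in siDNMT1_OB. The shore nearest to Cbx8, a Polycomb gene (chr11:119051227-119053226), lay 10.3 kb from its start. It differed by -0.138 and 0.294, with levels of 0.40, 0.262, 0.0909 and 0.385. The shore nearest to Dlx6, a homeobox gene of limb and bone (chr6:6860980-6862980), lay in the noncoding gene Dlx6os1, 0.4 kb from the Dlx6 start. It differed by -0.125 and 0.242, with levels of 0.125, 0, 0.0435 and 0.286. Over the 4825 shores, 5 were lower without induction and higher in OB by at least 0.1, and 8 were the reverse.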

How the results depend on the processing

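No paired analysis was possible because each condition had 1 library, and for the same reason no library could be left out. The alternatives on length, on shores touching 1 island and on averaging touching islands left every shore in place and could change nothing. Of the 216 other alternative values of the main results, 175 kept direction and size, 37 moved, some of them from a median near 0 to the other sign, and 4 reversed. At a threshold of 0.05 the shores lower and higher numbered 218 and 160 (siDNMT1 minus NC, uninduced), 450 and 149 (OB), 486 and 159 (induction with NC) and 731 and 156 (induction with siDNMT1), and at 0.2 they numbered 9 and 14, 15 and 15, 16 and 9, and 33 and 12. Centring each library on its median over autosomal shores subtracts 1 constant from every difference of a comparison (-0.0119 in OB, -0.0210 and -0.0306 on induction, beyond the all-shore medians of -0.00813, -0.00649 and -0.0133), so the turn in sign follows from the constant: it moved the median of siDNMT1 minus NC to -0.00123 without induction and reversed it to 0.000901 in OB, and reversed the induction medians to 0.0146 (66 lower, 68 higher) and 0.0155 (96 lower, 102 higher). In shores below 0.1 the centred siDNMT1 medians were 0.00298 and 0.0115, and at 0.7 or above -0.00593 and -0.00822. With starts of every transcript type, shore minus island was -0.00305 in NC, -0.00301 in siDNMT1, 0.000389 in NC_OB and -0.000563 in siDNMT1_OB, so the sign changed in every library but NC_OB. Without shores that hold a protein-coding start the siDNMT1 medians were -0.00480 and -0.0138, and the shore's difference minus the island's in OB was -0.00374. In plain flanks, an alternative chosen after seeing the data, the siDNMT1 medians were -0.00541 and -0.0151 and the median on induction with NC was -0.00566, and the shore's difference minus the island's was -0.00207, -0.00406 and 0.00477 in these comparisons. Of 79 alternative values of named shores 75 stayed, and centring brought 4 under 0.1 (Zfp423, Lhx4, Tet3 and Fgf9). The edge tolerance, CpG minimum, levels of 0 or 1 and chromosome X changed no main result by these criteria.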
